A study of Mus musculus with 29 samples.

Results

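The nuclear-encoded subunits of the oxidative phosphorylation machinery were examined in 29 single T cells from the spleen of OT-1 mice. The set was taken as every protein-coding entry whose symbol starts with Nduf, Sdha, Sdhb, Sdhc, Sdhd, Uqcr, Cox4, Cox5, Cox6, Cox7, Cox8 or Atp5. It holds 98 genes under 97 symbols, out of 22013 nuclear protein-coding genes and 54933 entries in all. By respiratory complex there are 46 genes of complex I, 8 of complex II, 8 of complex III, 18 of complex IV and 18 of complex V, and 13 of the 98 are assembly or accessory factors that carry a family name. OT-1 is a strain whose T cells carry a transgenic receptor for an ovalbumin (OVA) peptide. All cells came from splenocytes cleared of red blood cells by lysis and passed through a strainer, and each was made into its own library with SMART-seq2, which amplifies full-length cDNA. In the OVA group 21 cells had been for 3 h with OVA-presenting APC (antigen-presenting cells), and in the nothing group 8 cells had been for 3 h with APC that presented nothing. The design compares the expression profiles of these groups. Neither group has a further treatment in the labels, and no mouse, culture or day is named, so each group counts as 1 sample and no test was made. The spread given below is between cells, and cell numbers are only names.

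Oxidative phosphorylation is the last stage of respiration, carried out in the inner mitochondrial membrane. Complexes I to IV pass electrons from NADH and succinate to oxygen and all but complex II pump protons, and complex V, the ATP synthase, uses the proton gradient to make ATP. Complex II is encoded wholly in the nucleus, whereas complexes I, III, IV and V combine nuclear subunits with subunits encoded by the mitochondrial genome. T cells are known to rely on this pathway at rest and to adjust it after antigen recognition.

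Values are TPM, a transcript abundance scaled to a fixed sum per cell with the ERCC spike-in RNAs included. A gene was called detected at 1 TPM or more. TPM keeps no read number, so depth is unknown, and a 0 may be a failed estimate. Spike-ins took 67.8% ± 32.1 of TPM in OVA cells and 72.4% ± 32.5 in nothing cells, and more than 90% in 5 of 21 and 4 of 8 cells. Few transcripts spoke for the labelled cell type, T cell. T cell markers (9 of 10 genes, all but Cd8a) were detected in 10 of the 21 OVA cells (summed level 0 to 3387 TPM) and 2 of the 8 nothing cells (0 to 78.7 TPM). Cd8a and Cd8b1 encode the chains of the coreceptor that OT-1 T cells carry. Cd8a was listed at 0 in all 29 cells, and Cd8b1 was detected in 1 OVA cell (136 TPM) but no nothing cell. Neutrophil markers (8 of 9 genes, all but Cxcr2) were detected in 15 of the 21 OVA cells (0 to 19933 TPM) and 5 of the 8 nothing cells (0 to 3924 TPM). Their part in the results below was not tested.

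Most of these subunits were missing from most cells. Of the 98 genes 64 (65.3%) were detected in at least 1 cell, against 49.9% of all nuclear protein-coding genes, and 34 were at 0 in every cell (34.7%, against 48.5%). Of those detected, 20 were found in 1 cell, 16 in 2, 13 in 3, 7 in 4, 3 in 5, 2 in 6, 1 in 7 and 2 in 8 cells. No subunit was detected in more than 8 of 29 cells. By group, 39 genes (39.8%) were detected in OVA cells only, 2 (2.04%) in nothing cells only and 23 in both. Among all nuclear protein-coding genes 23.5% were detected in OVA cells only and 12.4% in nothing cells only. With 21 cells against 8 the OVA group also had more chances of detection. The pair seen in the nothing group only were Atp5d, the delta subunit of the ATP synthase (21.7 TPM), and Ndufab1, the acyl carrier protein of complex I (4.91 TPM), both in nothing cell 4.

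At least 1 subunit was detected in 19 of the 21 OVA cells (90.5%, exact Clopper-Pearson 95% bounds 69.6% and 98.8%) and in 4 of the 8 nothing cells (50%, bounds 15.7% and 84.3%). These bounds cover counting error only. All 4 nothing cells without a subunit (cells 1, 2, 3 and 6) had more than 90% spike-ins. Without the libraries of more than 90% spike-ins, at least 1 subunit was detected in 15 of the 16 OVA cells and 4 of the 4 nothing cells. The number of subunits per cell was 6.38 ± 8.23 among OVA cells (SD, n = 21 cells, median 4, from 0 to 27) and 4.38 ± 6.67 among nothing cells (SD, n = 8 cells, median 1, from 0 to 16). The difference lay within the spread between cells, and without the libraries of more than 90% spike-ins it turned round, to 7.62 ± 9.08 over 16 OVA cells and 8.75 ± 7.27 over 4 nothing cells.

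A handful of cells carried most of the detections. OVA cell 16 had 27 subunits, OVA cell 8 had 26, OVA cell 19 had 21 and OVA cell 13 had 13. In the nothing group, cell 4 had 16 subunits and cell 7 had 14, followed by 3 in cell 5 and 2 in cell 8. The other OVA cells had 7 or fewer, and OVA cells 1 and 2 had none. Each group thus held a few cells with many subunits and a majority with few, and the groups overlapped. The cells with many subunits differed in their markers. OVA cell 8 had 6 of the 9 neutrophil markers, 2 erythroid markers, 2 macrophage or dendritic cell markers and 1 T cell marker, with S100a9 as its highest protein-coding gene. OVA cell 16 had 5 neutrophil, 4 T cell and 4 erythroid markers, with S100a8 highest. OVA cell 13 had 4 T cell markers (3387 TPM) and no neutrophil marker. Nothing cell 4 had 5 neutrophil, 5 erythroid, 3 macrophage or dendritic cell, 1 T cell and 1 B cell markers. Nothing cell 7 had 3 neutrophil markers, 1 macrophage or dendritic cell marker and no T cell marker. OVA cell 19 had none of the T cell, B cell, neutrophil, erythroid, macrophage or dendritic cell markers used. The number of subunits followed the number of protein-coding genes detected (Spearman 0.80 over 29 cells) and ran against the spike-in percentage (Spearman -0.77). These descriptions share the library of each cell.

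**Figure D1:**
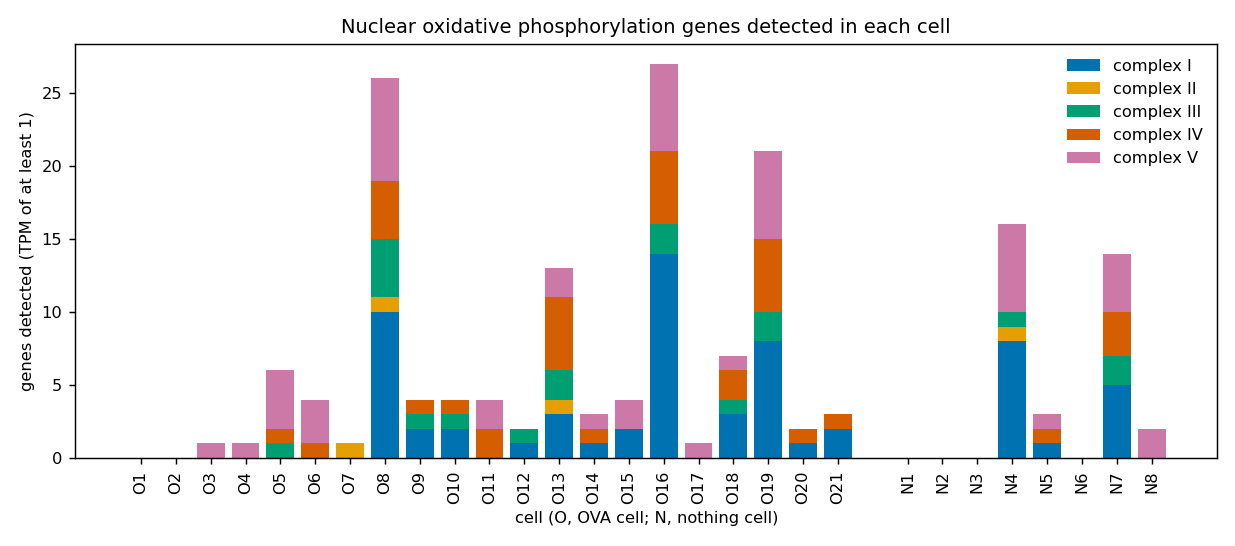
Number of nuclear-encoded subunits detected at 1 TPM or more in each of the 29 cells (vertical axis, genes), stacked by respiratory complex, with OVA cells 1 to 21 and then nothing cells 1 to 8 along the horizontal axis. OVA cells 8, 16 and 19 stand highest with 26, 27 and 21 genes, nothing cells 4 and 7 have 16 and 14, and nothing cell 4 has no complex IV gene.

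The share of nuclear protein-coding TPM held by the subunits separated the groups more than their number did. The subunits summed to 1.58% ± 2.12 of nuclear protein-coding TPM in OVA cells (SD over 21 cells, median 0.989%, range 0 to 9.51%) and to 0.0851% ± 0.143 in nothing cells (SD over 8 cells, highest 0.407%). Of the 21 OVA cells 14 (66.7%, 43.0% to 85.4%) lay above every nothing cell. The highest were OVA cell 19 at 9.51%, cell 16 at 4.17%, cell 18 at 2.80% and cell 14 at 2.33%. Nothing cell 7 had 0.407%, and the other nothing cells had 0.14% or less. The count was 13 of 20 without OVA cell 8, 12 of 19 without OVA cells 8 and 16, 16 of 21 without nothing cell 7, and 11 of 16 without the libraries of more than 90% spike-ins. OVA cell 19 moved the OVA mean to 1.19% when it was left out. The highest protein-coding gene of each cell, most often the predicted model Gm10800, took 24.0% of protein-coding TPM in OVA cells and 46.2% in nothing cells. With that gene taken out of the denominator the subunits held 1.97% ± 2.47 and 0.170% ± 0.293, and 14 OVA cells again lay above every nothing cell. Subunit TPM was above 0 in 19 OVA cells and 4 nothing cells. In 13 of these 19 and 2 of these 4 a single subunit held more than 50% of the summed subunit TPM. OVA cells 3, 4, 7 and 17 are among them because only 1 subunit was detected in each.

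Relative to other protein-coding genes, subunits were detected 1.76 ± 1.47 times as often in OVA cells and 0.597 ± 0.830 times as often in nothing cells. This ratio, the percentage of the 98 genes detected over the percentage of all 22013 nuclear protein-coding genes, was above 1 in 12 of the 21 OVA cells and 1 of the 8 nothing cells. OVA cell 19 had the highest ratio at 6.12, followed by OVA cell 16 at 4.06 and OVA cell 18 at 3.43. Nothing cell 4, with 3856 protein-coding genes detected, had a ratio of 0.93, and nothing cell 7 had 2.39. Receptor genes of the olfactory and vomeronasal families, with no known role in T cells, had a ratio of 1.34 in nothing cell 4 and 0.22 in OVA cell 19, and on average at 0.997 in nothing cells and 0.580 in OVA cells. Their part in the difference was not tested. The ratio of 4 of the 21 OVA cells lay above every nothing cell. The nothing mean includes the 4 cells of more than 90% spike-ins with no subunit. Without the libraries of more than 90% spike-ins the ratio was 1.82 ± 1.62 over 16 OVA cells and 1.19 ± 0.809 over 4 nothing cells, so the difference of 1.16 became 0.625. Without nothing cell 7 the mean ratio of the nothing group was 0.341, and without OVA cell 19 that of the OVA group was 1.54.

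**Figure D2:**
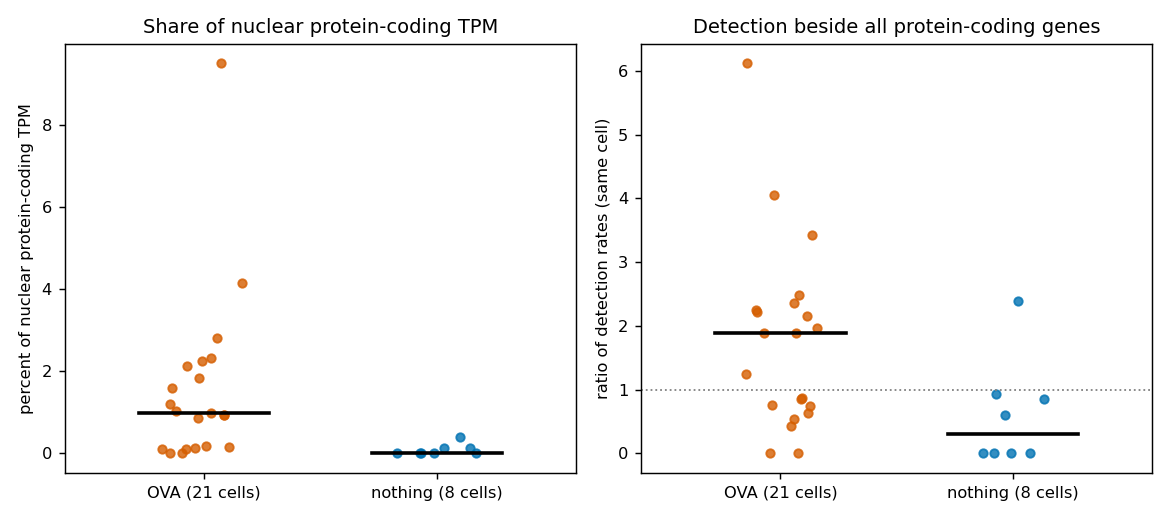
Each point is a cell. One panel shows the subunits' summed share of nuclear protein-coding TPM (percent) and the other their detection ratio to all nuclear protein-coding genes. Cells are set out by group, with a bar at the group median. The share reaches 9.51% in OVA cell 19 and 0.407% in the highest nothing cell, and the ratio reaches 6.12 and 2.39.

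Group differences per gene were taken as the mean log2(TPM + 1) over OVA cells minus that over nothing cells, for genes with detection in 3 or more cells. Low genes appear less different on it than they are. Of the 98 genes 28 met that minimum, 36 were detected in 1 or 2 cells and 34 in none. Of the 28, 15 (53.6%) were higher and 13 lower in the OVA group, and 56.4% of all genes that met the minimum were higher. A difference of 1 or more was reached by 6 of 28 upward (21.4%) and 2 of 28 downward (7.14%), against 9.31% and 6.62% of all 3717 genes that met the minimum and 6.56% and 7.77% of the 2484 nuclear protein-coding genes among them. The 6 were Atp5j2, Cox6c, Atp5e, Ndufa2, Atp5j and Ndufs5, and the 2 were Ndufb4 and Atp5l. The 6 met the minimum through OVA cells alone, so their direction was fixed by it. In all, 10 of the 28 (35.7%) were detected in OVA cells alone and none in nothing cells alone, against 25.3% and 1.08% of the 3717 genes and 24.4% and 1.21% of the 2484. The median difference was 0.18 over the 28 genes and 0.10 over all 3717.

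Start regions of these genes are shown because their shared use of a few motifs is a known feature of the family. RefSeq sequence from 250 bases before to 50 bases after the start (GRCm38.p6) was at hand for 78 of 97 symbols. GCATGCGC, the motif of nuclear respiratory factor 1, occurred on either strand in 12 of 78 (15.4%) against 4.10% of 16512 genes. CCGGAAG, the core motif of ETS factors such as GABP, occurred in 21 (26.9%) against 13.4%, and AANATGGC, a YY1 motif, in 19 (24.4%) against 7.59%. TATAAA was in 8 (10.3%) against 14.3%. At least 1 of the first 3 was in 43 of 78 (55.1%) against 22.3%. Among genes detected in at least 1 cell the motifs were in 8, 15 and 15 of 52, and among genes at 0 in all cells in 4, 6 and 4 of 26. A match describes letters, not a bound site. Below are the upstream bases outside annotated exons for 5 subunits that met the 3-cell minimum, chosen to show each motif, all read 5′ to 3′ on the minus strand, with matches of the first 3 motifs in capitals. TATAAA is not marked, and its reverse complement also occurs in the Atp5l stretch. They lie at chr15:82354323-82354541 (Ndufa6, GCATGCGC), chr19:3912775-3913024 (Ndufs8, AACATGGC), chr10:80406831-80407071 (Uqcr11, CCGGAAG), chr2:174464106-174464351 (Atp5e, the reverse complement CTTCCGG) and chr9:44920752-44920992 (Atp5l, GCATGCGC and CTTCCGG).
Ndufa6: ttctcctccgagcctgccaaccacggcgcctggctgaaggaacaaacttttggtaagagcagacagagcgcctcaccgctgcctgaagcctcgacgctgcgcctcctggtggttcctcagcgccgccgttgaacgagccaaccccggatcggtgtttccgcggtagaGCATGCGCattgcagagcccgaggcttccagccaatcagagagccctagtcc
Ndufs8: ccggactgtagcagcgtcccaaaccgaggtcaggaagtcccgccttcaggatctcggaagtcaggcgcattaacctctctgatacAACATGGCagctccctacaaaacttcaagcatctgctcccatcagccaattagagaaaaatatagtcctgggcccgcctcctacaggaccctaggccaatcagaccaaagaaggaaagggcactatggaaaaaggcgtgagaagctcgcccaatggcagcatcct
Uqcr11: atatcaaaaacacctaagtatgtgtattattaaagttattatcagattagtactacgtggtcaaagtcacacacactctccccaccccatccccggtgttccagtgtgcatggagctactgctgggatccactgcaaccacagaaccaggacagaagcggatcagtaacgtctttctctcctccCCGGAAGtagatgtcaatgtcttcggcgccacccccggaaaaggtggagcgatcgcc
Atp5e: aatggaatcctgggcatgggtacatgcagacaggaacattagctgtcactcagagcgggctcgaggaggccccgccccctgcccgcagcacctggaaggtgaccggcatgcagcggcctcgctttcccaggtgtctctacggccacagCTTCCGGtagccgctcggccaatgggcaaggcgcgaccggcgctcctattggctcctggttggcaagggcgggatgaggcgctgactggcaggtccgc
Atp5l: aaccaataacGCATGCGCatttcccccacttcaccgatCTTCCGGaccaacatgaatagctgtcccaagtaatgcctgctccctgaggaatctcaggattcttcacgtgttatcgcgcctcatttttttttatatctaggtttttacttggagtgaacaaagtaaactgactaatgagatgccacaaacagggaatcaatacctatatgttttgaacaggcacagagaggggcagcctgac

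Complex I, the NADH dehydrogenase, was detected in 12 of the 21 OVA cells and 3 of the 8 nothing cells. Of its 46 genes 29 were detected, 10 of them in both groups. OVA cells alone had 18 (39.1%, against 23.5% of all nuclear protein-coding genes) and nothing cells alone had 1 (2.17%, against 12.4%). The complex I genes held 0.550% of protein-coding TPM in OVA cells and 0.0413% in nothing cells. Among the 7 nuclear subunits of the catalytic core, which carry the flavin and the iron-sulfur clusters, 5 were detected, and Ndufv1 was at 0 in all 29. Ndufs1, the largest iron-sulfur subunit, was detected in 3 OVA cells and in nothing cell 4 (6.05 TPM), with a difference of 0.32, or 0.05, 0.10 and 0.67 without OVA cell 8, OVA cell 18 and nothing cell 4 in turn. Ndufs8 appeared in 2 OVA cells and 1 nothing cell.

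Within complex I, accessory subunits had the widest differences either way. Ndufa2 was at 120 TPM in OVA cell 8, 148 in cell 16, 494 in cell 18 and 140 in cell 19, and at 0 in all 8 nothing cells, which, taken as fewer than 3 counts, allows detection in up to 37.5% of such libraries, for counting error only. Its difference was 1.44. Ndufs5 was at 61.7 TPM in OVA cell 16, 359 in cell 18 and 453 in cell 19, and at 0 elsewhere (difference 1.11, or 0.72 without OVA cell 19). Both were thus high in the same 3 OVA cells, 16, 18 and 19. Ndufb4, an accessory subunit of the membrane arm (chromosome 16, 37647170 to 37654453), was at 25.3 TPM in OVA cell 16, 34.3 in nothing cell 4, 80.1 in nothing cell 5 and 27.3 in nothing cell 7. Its difference was -1.81, or -1.20 without nothing cell 5 and -3.78 without the libraries of more than 90% spike-ins. Ndufb4 was therefore found in 3 of the 8 nothing cells and in 1 of the 21 OVA cells.

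Ndufb5, also of the membrane arm (chromosome 3, 32736990 to 32751566), was the complex I gene found in the most cells. It was at 10.7 TPM in OVA cell 8, 86.9 in cell 15, 61.7 in cell 16, 1.62 in cell 19 and 27.1 in cell 21, and at 134 in nothing cell 4 and 15.9 in nothing cell 7. Its difference of -0.34 became 0.47 without nothing cell 4 and 0.05 without nothing cell 7, so it has no stable direction. Single high values occurred as well: Ndufa1 reached 983 TPM in OVA cell 20 and Ndufb7 299 TPM in OVA cell 10.

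Complex II, succinate dehydrogenase, was nearly missing. Sdha and Sdhb, the catalytic pair, and Sdhc, a membrane anchor, were at 0 in all 29 cells. Sdhd, the other membrane anchor (chromosome 9, 50596357 to 50603812), had 469 TPM in OVA cell 7, and 24.9 TPM in cell 13. In OVA cell 7 it was the only subunit detected of the whole set. Its difference was 0.65, or 0.23 without OVA cell 7. Sdhaf3, an assembly factor, was at 7.64 TPM in 1 OVA cell and 13.6 TPM in nothing cell 4. No gene of complex II was detected in 3 cells. Of the 13 assembly or accessory factors of all complexes 3 were detected, Sdhaf3, Ndufaf4 and Ndufaf8.

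Complex III, the cytochrome bc1 complex, was detected in 9 of the 21 OVA cells and 2 of the 8 nothing cells, and 7 of its 8 genes were found. OVA cells alone had 5 of the 8 (62.5%, against 23.5% of all nuclear protein-coding genes). The complex III genes held 0.190% of protein-coding TPM in OVA cells and 0.0162% in nothing cells. Uqcrc1, a core protein, was at 0 throughout. Uqcrq, a small subunit, was at 57.7 TPM in OVA cell 8, 2.69 in cell 10, 95.1 in cell 12, 151 in cell 19, and 74.0 and 71.7 in nothing cells 4 and 7. The groups overlapped, and the difference of -0.52 became 0.15 without nothing cell 4 and 0.14 without nothing cell 7, but -1.87 without the libraries of more than 90% spike-ins. Uqcr11 (chromosome 10, 80402997 to 80406830) was at 227 TPM in OVA cell 16, 872 in cell 19 and 105 in nothing cell 7, with a difference of 0.00, or 0.84 without nothing cell 7. Uqcr10 was at 108, 138 and 59.2 TPM in OVA cells 8, 13 and 16 and at 0 in the nothing group (difference 0.94). Uqcrh, the hinge protein, and Uqcrb were each detected in 2 OVA cells but no nothing cell.

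Complex IV, cytochrome c oxidase, was detected more often in OVA cells over all 29 cells. It was detected in 13 of the 21 OVA cells and 2 of the 8 nothing cells, and in 7.94% of gene and cell pairs against 2.78%. The nothing cells without it included the 4 libraries of more than 90% spike-ins, in which no subunit was detected. In pairs every other complex lay the same way, with complex III at 8.93% against 4.69%. Of its 18 genes 11 were detected, 8 in OVA cells only (44.4%, against 23.5% of all nuclear protein-coding genes) and 3 in both groups. Complex IV genes held 0.294% ± 0.467 of protein-coding TPM in OVA cells and 0.00452% ± 0.0122 in nothing cells. In this share 9 of the 21 OVA cells lay above every nothing cell, or 7 of 19 without OVA cells 8 and 16. Without the libraries of more than 90% spike-ins 8 of 16 OVA cells lay above all 4 nothing cells. Nothing cell 4, which had 8 complex I genes and 6 complex V genes, had none of complex IV. The other complexes were not tested against complex IV.

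Cox4i1, the ubiquitous form of subunit 4 (chromosome 8, 120668222 to 120674207), was at 2.45 TPM in OVA cell 8, 6.30 in cell 10, 18.1 in cell 11, 78.6 in cell 16, 55.2 in cell 19, 4.98 in cell 20 and 4.45 in cell 21. In the nothing group it was at 20.9 TPM in cell 7 only. Its difference was 0.68, or 1.24 without nothing cell 7, 0.43 without OVA cell 16, 0.46 without OVA cell 19 and 0.34 without the libraries of more than 90% spike-ins. Cox4i1 shares with Atp5l the widest detection of the 98 genes, 8 cells, and in 5 of the 8 its level was under 20 TPM. Cox6c (chromosome 15, 35925886 to 35938246) was at 11.3 TPM in OVA cell 8, 457 in cell 14, 70.3 in cell 16, 299 in cell 18 and 137 in cell 19, and at 0 in all nothing cells (difference 1.62). Cox6c2, listed as a processed pseudogene, was detected in the same 5 cells at 3.30 to 34.2 TPM, so the split of reads between these copies is uncertain. Cox5b was at 2.73, 94.8, 29.7 and 75.7 TPM in OVA cells 11, 13, 16 and 19 and at 0 in nothing cells (difference 0.94).

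Cox7c was at 96.6, 113 and 89.8 TPM in OVA cells 13, 18 and 19, and at 1.59 and 2.69 TPM in nothing cells 5 and 7, so its 3 OVA values lay well above both nothing values. Its difference of 0.54 was 0.26, 0.25 and 0.27 without OVA cells 13, 18 and 19 in turn. Cox7a2l, a factor in respiratory supercomplexes, was detected in 2 OVA cells (highest 32.8 TPM) and in nothing cell 7 (31.6 TPM), with a difference of -0.20 that became 0.42 without nothing cell 7. The 7 isoforms known from particular tissues such as lung, muscle or testis (Cox4i2, Cox6a2, Cox6b2, Cox7a1, Cox7b2, Cox8b and Cox8c) were at 0 in all 29 cells. For each, 0 of the 21 OVA cells, by the same rule allows detection in up to 14.3% of such libraries and says nothing of failed estimates. Ndufa4, named for complex I and known as a cytochrome c oxidase subunit, was also at 0 in every cell.

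Complex V was detected in similar percentages of gene and cell pairs in both groups. At least 1 of its 18 genes was found in 13 of the 21 OVA cells and 4 of the 8 nothing cells, and 9.79% of gene and cell pairs were detected in OVA cells against 9.03% in nothing cells. Of the 15 genes detected, 7 were in OVA cells only (38.9% of the 18), 1 in nothing cells only (5.56%) and 7 in both. Among all nuclear protein-coding genes the shares for a single group were 23.5% and 12.4%. The complex held 0.442% of protein-coding TPM in OVA cells and 0.0227% in nothing cells. All 5 genes of F1, the catalytic part of the ATP synthase, were detected. Atp5b, the catalytic beta subunit, was at 13.0 and 22.1 TPM in OVA cells 11 and 16, and at 18.6, 4.66 and 8.10 TPM in nothing cells 4, 7 and 8 (difference -0.85, or -0.42 without nothing cell 4 and -1.97 without the libraries of more than 90% spike-ins). Atp5a1, the alpha subunit, was detected in 3 OVA cells but no nothing cell. Atp5e, the epsilon subunit (chromosome 2, 174461072 to 174464105), was at 450 TPM in OVA cell 5, 236 in cell 6, 131 in cell 8 and 274 in cell 19, and at 0 in nothing cells (difference 1.52). Atp5e and Atp5a1 met the 3-cell minimum through OVA cells alone, as did 24.4% of the nuclear protein-coding genes that met it, and each F1 gene rests on 5 cells or fewer.

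Outside F1, Atp5j2, the f subunit of the membrane part (chromosome 5, 145183698 to 145192062), was at 28.6 TPM in OVA cell 3, 259 in cell 4, 35.0 in cell 5, 16.5 in cell 8, 51.4 in cell 16 and 251 in cell 19. In the nothing group its highest value was 0.274 TPM, in cell 5, and the difference was 1.67. It was the only subunit detected in OVA cells 3 and 4. Atp5j, coupling factor 6 of the stalk, was at 5.20, 116, 474 and 162 TPM in OVA cells 11, 16, 18 and 19 and at 0 in nothing cells (difference 1.23). Atp5l, the g subunit (chromosome 9, 44912557 to 44920742), ran the other way. It was at 80.2, 94.5, 38.3 and 19.2 TPM in OVA cells 5, 13, 15 and 16, and at 3.73, 75.8, 85.6 and 28.9 TPM in nothing cells 4, 5, 7 and 8. The levels overlapped, but 4 of the 8 nothing cells against 4 of the 21 OVA cells had it (difference -1.35, or -0.81 without nothing cell 5 and -0.79 without nothing cell 7). It was also listed under 1 TPM in OVA cells 8, 12 and 19. Without the libraries of more than 90% spike-ins the difference was -3.81. Pseudogene copies of Atp5l were detected in some of the same cells, so its level is uncertain. The c ring, which turns with proton flow, was rarely seen: Atp5g1 and Atp5g2 in 2 and 1 cells, and Atp5g3 in none.

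**Figure D3:**
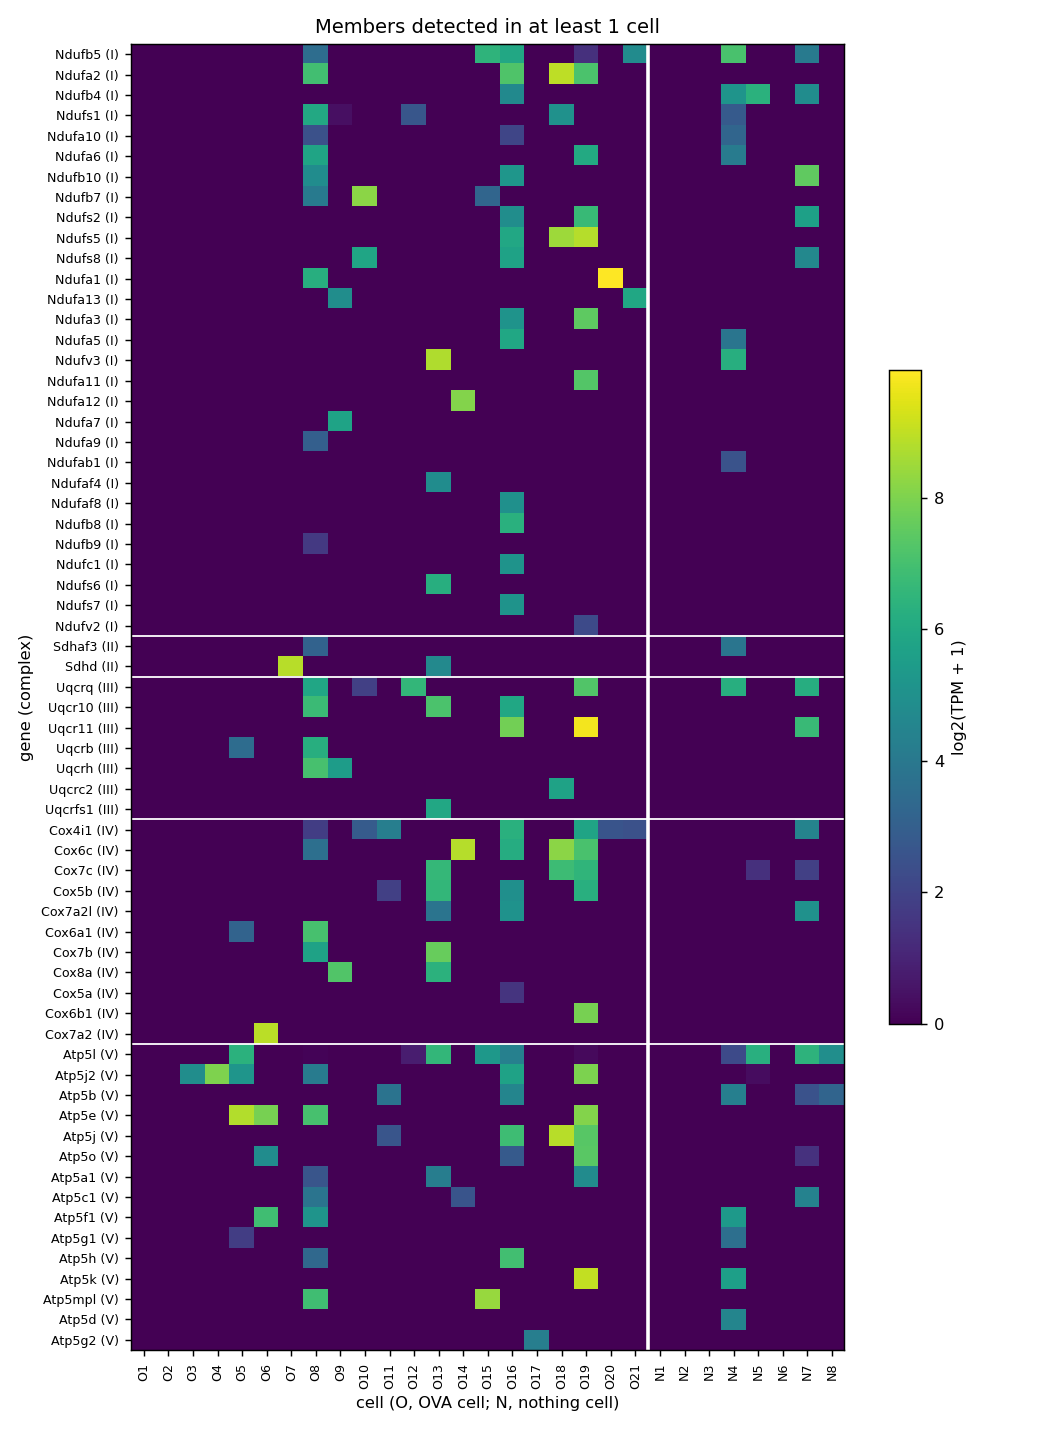
Levels on the log2(TPM + 1) scale of the subunits detected in at least 1 cell (rows, grouped by complex) in the 29 cells (columns, OVA cells to the left of the line and nothing cells to the right). OVA cells 8, 16 and 19 and nothing cells 4 and 7 hold most of the filled squares, and Cox6c, Atp5j2, Atp5e and Ndufa2 have none at 1 TPM or more in nothing cells.

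Few cells had detected genes of every complex. Genes of all 5 complexes were detected in 2 of the 21 OVA cells (cells 8 and 13) and none of the 8 nothing cells, and genes of at least 4 complexes in 5 of 21 and 2 of 8. Atpif1, the inhibitor protein of the ATP synthase, was detected in 6 OVA cells at 110 to 655 TPM and in nothing cell 7 at 241 TPM (difference 1.35). Cycs, cytochrome c, was detected in OVA cell 8 only, at 18.5 TPM. Genes that every cell uses were also often at 0, with Hprt detected in no cell and Gapdh in 4 OVA cells and 1 nothing cell. Others were found more widely, such as Actb in 13 OVA cells and 1 nothing cell, and Tpt1 in 12 and 2. The 12 housekeeping genes were detected in 27.4% of gene and cell pairs in OVA cells and 8.33% in nothing cells. For the subunits these were 6.51% and 4.46%. Tfam, the mitochondrial transcription factor, was at 0 throughout, and Ppargc1a, a coactivator of mitochondrial biogenesis, reached 1 TPM in nothing cell 4 only (4.06 TPM).

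Related gene lists varied. Cytochrome c, carriers and porins were detected for 6 of 7 genes, 4 in OVA cells only, as were 23.5% of all nuclear protein-coding genes. Slc25a5, an ADP/ATP carrier, was detected in 4 OVA cells but no nothing cell (difference 1.35). Cytochrome c oxidase assembly genes were detected for 5 of 12, with Cox17, a copper chaperone, in 4 and 1 cells (0.79). Citric acid cycle genes were detected for 7 of 14, with Cs (0.46), Mdh2 (0.55) and Dlst (-0.35) meeting the 3-cell minimum. Regulators of mitochondrial transcription and biogenesis were detected for 4 of 10, of which Tfb2m was in 3 OVA cells but no nothing cell (0.59). Mitochondrial ribosomal proteins were detected for 44 of 78, at a mean ratio to protein-coding genes of 0.91 in OVA cells and 0.50 in nothing cells. Cytosolic ribosomal proteins were detected for 87 of 93, at 10.95 and 4.70. Of 84 cytosolic ribosomal genes that met the minimum 81 were higher in the OVA group, and all 8 such housekeeping genes of 12 were higher (median 1.71), against 56.4% of all genes and 50.9% of nuclear protein-coding genes that met it. The median over the latter was 0.02. In share of protein-coding TPM these lists lay the same way as the subunits. Cytosolic ribosomal proteins held 9.92% in OVA cells and 0.851% in nothing cells, housekeeping genes 1.09% and 0.0294%, and carriers 0.0977% and 0.00145%. Marker lists of several cell types also lay this way: neutrophil (5.39% and 0.910%), erythroid (0.432% and 0.0655%), T cell (0.212% and 0.00933%), and macrophage and dendritic cell (0.0663% and 0.00573%). B cell markers (0% and 0.00110%) and the olfactory and vomeronasal receptors (1.31% and 1.70%) lay the other way. The higher share in OVA cells was therefore not particular to the subunits.

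The mitochondrially encoded subunits of the same complexes were far more often detected. All 13 were found, in 59.0% of gene and cell pairs in OVA cells and 38.5% in nothing cells, against 6.51% and 4.46% for the nuclear subunits. mt-Cytb, of complex III, was detected in 18 OVA cells and 5 nothing cells (difference 3.84), mt-Co1 of complex IV also in 18 and 5 (2.36), and mt-Co2 in 17 and 4 (3.08). Of the 13, 12 were higher in the OVA group by 1 or more and mt-Atp6, of complex V, was lower (-2.97, in 2 OVA and 3 nothing cells), with a median of 2.58. Of all 3717 genes that met the minimum, 9.31% were higher and 6.62% lower by 1 or more. The mitochondrial differences were not run again without the libraries of more than 90% spike-ins, 5 of the 21 OVA cells and 4 of the 8 nothing cells. Their size, and for some their direction, may therefore rest on those libraries. mt-Nd2, with a difference of 1.36, was highest in nothing cell 4 (11723 TPM, against at most 1075 TPM in OVA cells). mt-Atp6 was above 0 only in cells where the overlapping mt-Atp8 was at 0, and mt-Nd4 only where mt-Nd4l was at 0. The group differences of these overlapping genes are therefore uncertain. In 20 of the 21 OVA cells and 7 of the 8 nothing cells the mitochondrial transcripts summed above the nuclear ones. The exceptions were OVA cell 3 (28.6 TPM nuclear, 0 mitochondrial) and nothing cell 5 (158 and 39.7 TPM). Over the 9 mitochondrial genes outside the overlapping pairs described below, the counts were 19 of the 21 and 5 of the 8. OVA cell 14 and nothing cell 8 then also had a higher nuclear sum, and nothing cell 2 was at 0 for both.

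The number of nuclear subunits followed the mitochondrial sum across cells (Spearman 0.77 over 29 cells, from shared libraries). In 9 cells mitochondrial messages held at least 10% of TPM, and these included all 6 cells with 13 or more nuclear subunits. Cells with high mitochondrial sums still differed widely in nuclear subunits. OVA cell 9, with the highest mitochondrial sum of 504725 TPM, had 4 nuclear subunits, OVA cell 5 had 6 and OVA cell 7 had 1, whereas OVA cell 16 had 27 and OVA cell 8 had 26. In these 9 cells the nuclear sum was between 0.0547% (OVA cell 9) and 1.17% (OVA cell 19) of the mitochondrial sum. The log2 ratio of nuclear to mitochondrial TPM averaged -5.34 ± 3.92 over OVA cells and -5.79 ± 4.22 over nothing cells, a difference of 0.45 that is small beside the spread.

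Much of the mitochondrial sum came from a pair of short genes. mt-Nd4l (mitochondrial genome, 9877 to 10173) overlaps mt-Nd4 (10167 to 11544) by 7 bases, and mt-Atp8 (7766 to 7969) overlaps mt-Atp6 (7927 to 8607) by 43 bases. mt-Nd4l and mt-Atp8 together held a median of 94.9% (66.3% to 98.6%) of the mitochondrial sum in the 9 cells, while mt-Nd4 and mt-Atp6 were at 0 in all 9. How reads were shared between overlapping genes is not given in the sources used here. Against the other 9 mitochondrial genes, the nuclear subunits summed to a median of 6.26% (0.907% to 32.3%) in these cells, and the group difference of the log2 ratio became -0.18. Its direction thus depended on which mitochondrial genes were summed.

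**Figure D4:**
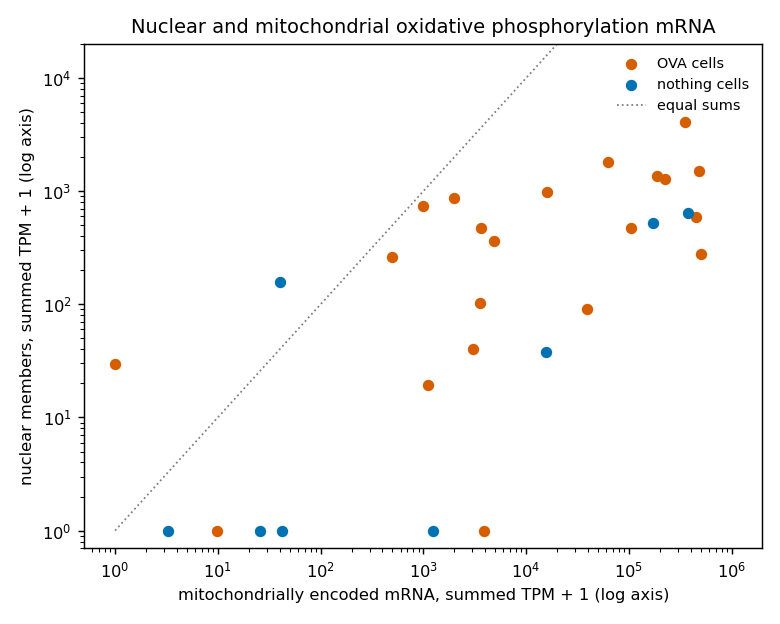
Summed TPM of the nuclear subunits (vertical axis) against summed TPM of the 13 mitochondrially encoded subunits (horizontal axis) on log axes, with a point for each cell coloured by group. All but OVA cell 3 and nothing cell 5 lie on the mitochondrial side of the line of equal sums, and OVA cells 5, 7 and 9 have high mitochondrial sums with 6, 1 and 4 nuclear subunits detected.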

How the data were processed

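The data are TPM values deposited by the authors, 1 column for each of 29 cells, each with the same sum over 54933 entries. Tools listed in the submitters' processing notes are featureCounts 1.6.4, StringTie 1.3.5 and HISAT2 2.1.0, with mm10 and GRCm38 as builds and no roles. Strand use and cell filters: not given in the sources used here. Groups came from the treatment label. Python 3.11.15, pandas 2.3.3, numpy 2.4.6 and scipy 1.17.1 were used. Detection was 1 TPM, the pseudocount 1 and the minimum 3 cells. All values were computed over the whole table. The per-gene difference was also run on shuffled values with known shifts added. It returns such shifts by construction, so that run does not bear on the other measures. Positions are from GENCODE M21. With 1 sample per group no test was run.

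Members and lists were chosen with earlier results of these data known. Named genes were, per complex, up to 5 members detected in the most cells and up to 2 with the largest difference that met the minimum, the mitochondrial counterparts and genes listed beforehand (Atp5if1 is listed here as Atpif1). Other genes were named after their values were seen. The ribosomal protein lists were added after seeing the data. The remaining marker lists were B cell (1 of 6 genes detected), macrophage and dendritic cell (5 of 10) and erythroid (5 of 6).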

Additional observations from a re-analysis of the deposited data

Results flagged for a closer look

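In the nothing group, 33 measures were examined for a cell that lies far from the other 7, and 11 were found. Chance gives about 1 in 20, but that rate does not hold for 7 of the 11, where 1 cell is above 0 and the other 7 are at 0, since any such measure is found. Nor does it hold for genes at 0 in every nothing cell, such as Ndufa2, Ndufs5, Uqcr10, Cox6c, Cox5b, Atp5e and Atp5j, which cannot be found. The count of 11 therefore cannot be read against that rate. Measures of 1 cell are not independent. The OVA group of 21 cells was too large for this check. Nothing cell 7 stood above the other 7 in detection ratio (2.39), share of protein-coding TPM (0.407%), mitochondrial sum (379552 TPM), complex IV genes detected (3), Uqcr11 (105 TPM), Cox7a2l (31.6 TPM) and Cox4i1 (20.9 TPM). Nothing cell 4 stood above the others in complex II genes detected (1), Ndufs1 (6.05 TPM) and Sdhaf3 (13.6 TPM). Nothing cell 5 was the only nothing cell with a value above 0 for Atp5j2 (0.274 TPM).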

How the results depend on the processing

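No paired analysis was possible because the labels give no replicate numbers that link cells of the groups. The upward count of 6 subunits (21.4%, against 9.31% of all genes that met the minimum) became 11 with a pseudocount of 0.1 (39.3% against 28.0%), 10 after rescaling without spike-ins and mitochondrial genes (35.7% against 18.2%), 8 without the libraries of more than 90% spike-ins (32% against 12.1%), and 0 with a pseudocount of 10, with detection in at least 10 cells (which no subunit reached) or with medians over cells. The downward count of 2 became 0 with a pseudocount of 10 or at least 10 cells, 1 with medians and 6 without the libraries of more than 90% spike-ins (24% against 22.7%). Subunits detected per cell, higher in OVA cells by 2.01, turned to -1.13 without those libraries, and the detection ratio difference of 1.16 became 0.625. The nuclear to mitochondrial difference of 0.45 turned to -0.71 with a pseudocount of 10, -0.60 without those libraries and -0.18 without the overlapping gene pairs. It rose to 1.88 with a pseudocount of 0.1, 3.13 after rescaling without spike-ins and 3.15 after rescaling without spike-ins and mitochondrial genes. Leaving out each cell in turn gave 4 (without OVA cell 16) to 7 upward, 1 (without nothing cell 7) to 3 downward, a median of 0.08 (without OVA cell 13) to 0.73 (without nothing cell 7), 0.975 (without OVA cell 16) to 3.67 (without nothing cell 4) subunits per cell, 0.941 to 1.42 in detection ratio, 1.10 to 1.58 percentage points in share, and -0.19 (without nothing cell 1) to 1.55 (without nothing cell 5) against mitochondrial transcripts, also -0.07 without OVA cell 3 and -0.04 without nothing cell 7. The share and detection ratio kept their direction under every alternative run. The overlapping-pair, top-gene and cell 8, 16 and 4 exclusions were chosen after seeing the data. The cause of these changes was not tested. Unknown depth limits every value at 0.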
